A study of Gallus gallus with 8 samples.

Results

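The genes described here remodel or protect the extracellular matrix: metalloproteinases, their inhibitors, serpins, sulfatases and lysyl oxidases. They were taken by name, as the rows of the deposited chick gene tables that begin with MMP, ADAM or ADAMTS, TIMP, SULF1 or SULF2, SERPIN, ARSI or LOX. This gave 57 of 17778 listed genes. They were 4 secreted and 5 membrane-bound matrix metalloproteinases, 3 ADAM and 16 ADAMTS proteases, 4 ADAMTS-like proteins, 2 TIMP inhibitors, 16 serpins, 2 sulfatases, 4 lysyl oxidases and LOXHD1, which shares only the first letters of the lysyl oxidase names. A member listed under another kind of name was not taken in, so the set is not complete for any family. No sequence of these genes is shown.

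Matrix metalloproteinases and ADAMTS proteases are zinc enzymes that cut collagens, proteoglycans and fibrillins, and TIMP proteins block them by binding the catalytic site. Most serpins are suicide inhibitors of serine proteases such as thrombin and the plasminogen activators. SULF enzymes remove sulfate groups from heparan sulfate outside the cell and so change how it holds growth factors, and lysyl oxidases crosslink collagen and elastin fibres. In the embryonic heart these enzymes act on the versican-rich cardiac jelly, from which the valve cushions form.

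RNA came from 8 pools of dissected chick (Gallus gallus) embryo tissue, each sequenced as 1 library. The heart gave 4 libraries, labelled as the developing sino-atrial node (the embryonic pacemaker region), the atrioventricular junction at Hamburger-Hamilton (HH) stage 17 to 18, the left component of the atria and the apex of the common ventricle. The lateral plate mesoderm at HH stage 8 gave the other 4, which were the pacemaker progenitor field and the anterior, left and posterior mesoderm. No genotype or treatment was given, neither the embryos per pool nor the stages of node, atrium and ventricle are stated, and only the left side of the atria was taken, so that region, side and stage cannot be told apart among heart libraries. The node, junction and ventricle labels were checked against a few genes. ISL1 stood at 17.6 CPM (read counts scaled to a common library size) in the node and at most 0.695 in the other heart libraries. HCN4, also taken for the node, set it apart less, at 99.9 there, 69.9 in the junction, 40.3 in the atrium and 21.5 in the ventricle. MSX2 stood at 83.8 in the junction and at most 10.9 elsewhere in the heart. TBX2, also taken for the junction, stood at 39.1 there, 18.1 in the atrium, 7.26 in the node and 1.63 in the ventricle. HEY2 stood at 292 in the ventricle, 175 in the junction, 24.6 in the node and 19.8 in the atrium. The atrium and the single mesoderm parts were not checked in this way. In the mesoderm ISL1 stood at 14.7 CPM in the anterior part, 6.27 in the pacemaker field, 5.32 in the left and 4.38 in the posterior part. The summed level of 5 heart muscle genes was 11720 to 15840 CPM in the heart libraries and 486 to 924 in the mesoderm.

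Library totals ran from 10258697 counts in the ventricle to 17189803 in the atrium. Levels are CPM after scaling between libraries (TMM). They were compared between libraries for 1 gene at a time, since transcript lengths were not at hand to compare genes. With 1 library per tissue there is no replicate check and no p-value. Higher or lower was called where the ratio of CPM + 1 was at least 2-fold against every reference library, the higher side held at least 5 CPM and the exact 95% interval of the count ratio excluded 1. Folds are ratios of CPM, with that interval in brackets, which covers counting error only and takes reads as independent although amplified copies are not. In pooled tissue, fewer cells of a type and less RNA per cell cannot be told apart.

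At least 5 CPM in at least 1 library was reached by 27 of the 57 members, and 16 of them reached 20 CPM. Among the 27, the highest heart level lay in the node for 13, in the junction for 8, in the ventricle for 4 and in the atrium for 2. The same count was not made over all genes, and the members were chosen with earlier results known. No lean of the set to a region can be read from it. Several of these places also rest on gaps within counting error, as for ADAMTS3, ADAMTSL3, ARSI, MMP23B, MMP24 and LOX. The 30 members below that level included all 3 ADAM genes and 13 of 16 serpins, and 4 serpins had 0 counts in every library. The members just inside the level were ADAMTS6 at 6.71 CPM at most and MMP23B at 8.69, and those just outside were ADAM22 at 4.87 and ADAM32 at 3.82.

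**Figure D1:**
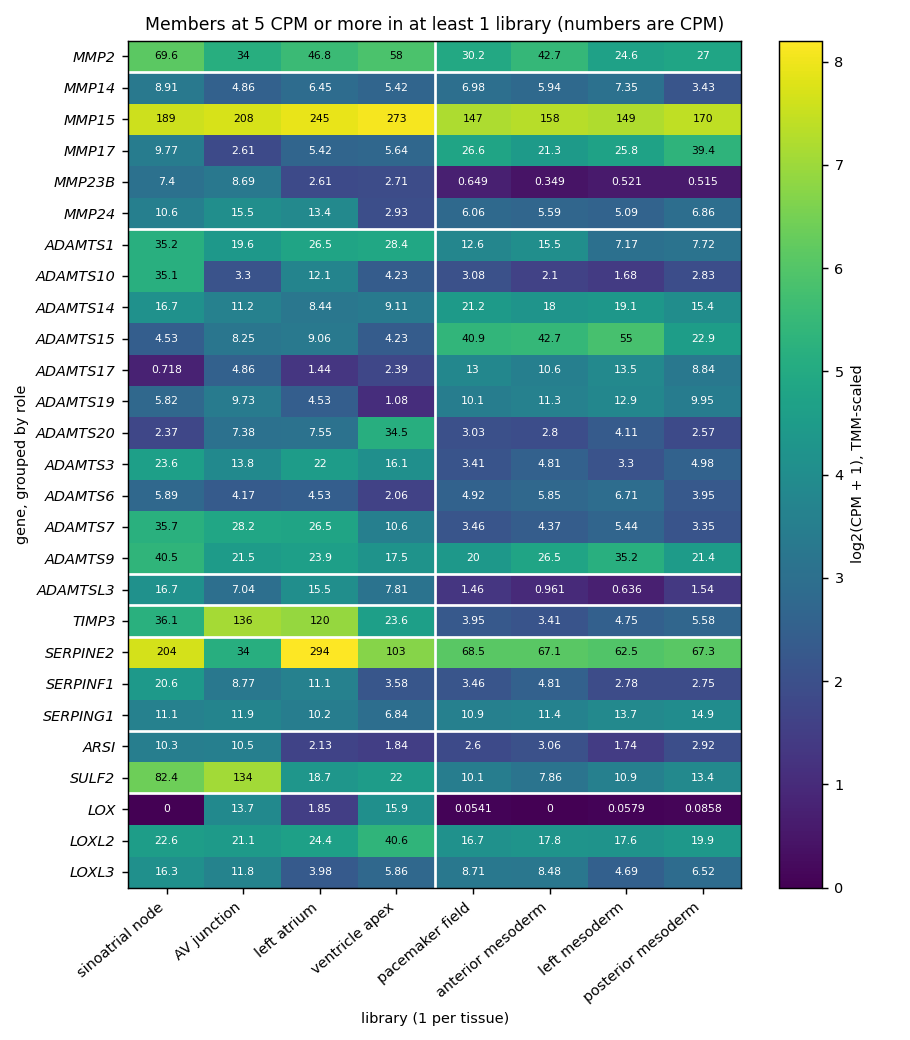
Heat map of the 27 members that reached 5 CPM, with genes in rows grouped by role, the 8 libraries in columns, CPM printed in each cell and colour showing log2(CPM + 1). Colour compares libraries within a row, and rows such as SULF2, TIMP3, SERPINE2 and LOX change far more over the 4 heart columns than over the 4 mesoderm columns.

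In these libraries the members that reached 5 CPM had wider ranges between heart regions than between parts of the mesoderm. The range over the 4 heart libraries, from the lowest to the highest CPM + 1, was at least 2-fold for 19 of the 27 members (70.4%) and at least 4-fold for 10 of them. Over all 10454 genes at that level, 21.4% had a heart range of at least 2-fold and 5.47% one of at least 4-fold. In the mesoderm, 2 of the 27 members (7.41%) had a range of at least 2-fold, beside 4.02% of all genes. The median range was 1.58 on the log2 scale in the heart and 0.57 in the mesoderm for the members, and 0.57 and 0.34 for all genes. These shares describe the libraries and were not tested. LOX, MMP23B, ADAMTSL3, ARSI, ADAMTS10, ADAMTS20, SERPINF1 and ADAMTS3 reached 5 CPM in heart libraries only. Near 0 the CPM + 1 scale also narrows a range, as for LOX, at most 0.0858 CPM in the mesoderm. Part of the contrast between heart and mesoderm thus follows from the filter and the scale. The members were also chosen with earlier results known, so the shares are no separate evidence.

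**Figure D2:**
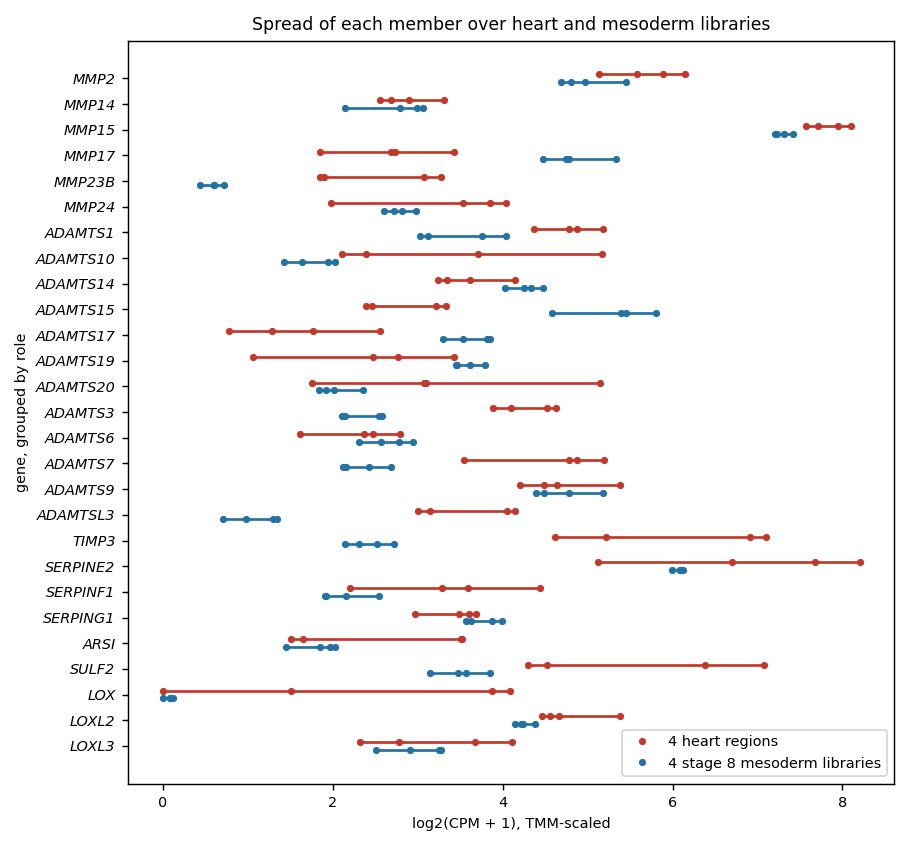
Level of each of the 27 members as log2(CPM + 1) on the horizontal axis, with 1 point per library, heart in red and stage 8 mesoderm in blue, and lines from the lowest to the highest library of each tissue. The heart lines are the longer ones for most genes, with a median length of 1.58 against 0.57. For TIMP3, ADAMTS3 and ADAMTSL3, called higher in the heart, the heart points all lie to the right of the mesoderm points. The same holds, by smaller gaps or at lower levels, for ADAMTS1, ADAMTS7, ADAMTS10, LOXL2, MMP15, MMP23B and SULF2. The nearest gap was within counting error for ADAMTS10 (1.07-fold, 0.691 to 1.64) and LOXL2 (1.06-fold, 0.882 to 1.275). In the deposited CPM without scaling, the junction fell below at least part of the mesoderm for ADAMTS10, LOXL2 and MMP15.

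Both sulfatases were high in the node and the junction and low in the working chambers. SULF2, an extracellular sulfatase that trims heparan sulfate, stood at 82.4 CPM in the node, 134 in the junction, 18.7 in the atrium and 22.0 at the ventricle apex. In the mesoderm it reached 10.1 (pacemaker field), 7.86 (anterior), 10.9 (left) and 13.4 CPM (posterior). The junction exceeded the node 1.63-fold (1.51 to 1.76), the node exceeded the ventricle 3.74-fold (3.22 to 4.37), and atrium and ventricle could not be told apart by counting error (1.18-fold, 0.976 to 1.42). SULF2 lies on chromosome 20 from 5874399 to 5931861 on the minus strand. All positions are those listed in the deposited tables, for which no genome build is stated.

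ARSI, arylsulfatase I, was likewise higher in node and junction than in both chambers. It stood at 10.3 CPM in the node, 10.5 in the junction, 2.13 in the atrium and 1.84 at the ventricle apex, with a range of 1.74 to 3.06 in the mesoderm. Node and junction did not differ beyond counting error (1.02-fold, 0.791 to 1.30), while the node exceeded the atrium 4.86-fold (3.28 to 7.42). Unlike SULF2, whose 4 heart levels all lay above the mesoderm, ARSI in the chambers lay within the mesoderm range. ARSI lies on chromosome 13 from 13262688 to 13265690 on the plus strand.

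Epicardial markers, which mark the outer lining of the heart, were split the same way between the heart libraries. The 4 of 8 listed epicardial genes that were found summed to 160 CPM in the node, 159 in the junction, 20.2 in the atrium and 27.5 in the ventricle. TCF21, an epicardial transcription factor, was at 138 and 140.0 CPM in node and junction against 15.9 and 23.3 in the chambers, and UPK3B, a marker of mesothelium, was at 0 in the node and the ventricle. In the mesoderm, which is of HH stage 8, TCF21 stood at 54.3 to 105 CPM with SULF2 at 7.86 to 13.4. Those values are from another tissue and stage than the heart libraries. The part of epicardial cells in the sulfatase levels was not tested.

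Among inhibitors, TIMP3, a matrix-bound inhibitor of metalloproteinases, showed the widest gap to the mesoderm on the log2 scale. It stood at 36.1 CPM in the node, 136 in the junction, 119 in the atrium and 23.6 in the ventricle, against 3.95, 3.41, 4.74 and 5.58 in the pacemaker field and the anterior, left and posterior mesoderm. Every heart library was above every mesoderm library, and the smallest gap, ventricle over posterior mesoderm, was 4.22-fold (3.19 to 5.66). Junction and atrium were close (1.14-fold, 1.06 to 1.22), and the atrium exceeded the node 3.31-fold (2.99 to 3.66) and the ventricle 5.07-fold (4.40 to 5.87). TIMP3 lies on chromosome 1 from 55131909 to 55164457 on the minus strand. TIMP4, the other TIMP under a matching name, did not pass 0.503 CPM in any library.

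SERPINE2, also called protease nexin-1, inhibits thrombin and plasminogen activators at the cell surface. It stood at 294 CPM in the atrium, 204 in the node, 103 in the ventricle and 34.0 in the junction, and at 68.5, 67.1, 62.5 and 67.3 CPM in the pacemaker field and the anterior, left and posterior mesoderm. The 4 heart levels were in a distinct order, with 1.44-fold (1.37 to 1.51) between atrium and node, 1.99-fold (1.85 to 2.14) between node and ventricle and 3.03-fold (2.69 to 3.42) between ventricle and junction. The mesoderm lay between the ventricle and the junction. SERPINE2 and TIMP3 thus went apart in the junction, where TIMP3 was at its highest and SERPINE2 at its lowest level of the heart. SERPINE2 lies on chromosome 9 from 9384815 to 9395612 on the minus strand.

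SERPINF1, pigment epithelium-derived factor, a serpin that inhibits no protease, had 20.6 CPM in the node, 8.77 in the junction, 11.1 in the atrium, 3.58 in the ventricle and 2.75 to 4.81 in the mesoderm. The node exceeded the atrium 1.87-fold (1.53 to 2.28) and the ventricle 5.76-fold (4.01 to 8.53). SERPING1, the inhibitor of complement component C1s, ranged from 6.84 CPM in the ventricle to 14.9 in the posterior mesoderm and was not called anywhere, on a row that spans only 250 bases. The other 13 serpins stayed at or below 2.32 CPM. They were SERPINA1, SERPINA3, SERPINA4, SERPINA5, SERPINA9, SERPINA10, SERPINB1, SERPINB2, SERPINB5, SERPINB10, SERPINB12, SERPINE3 and SERPINF2. Of these, SERPINA3, SERPINA9, SERPINB10 and SERPINB5 had no count in any library.

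**Figure D3:**
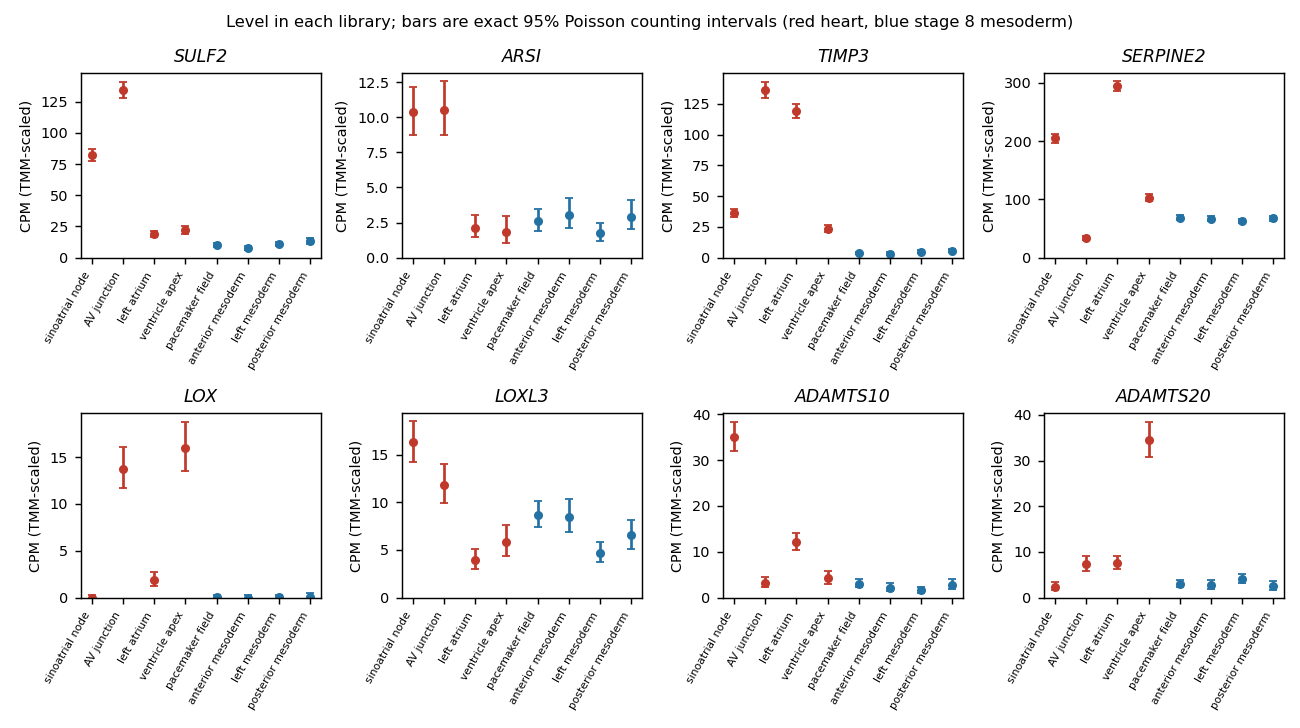
Level in CPM (vertical axis, from 0) of SULF2, ARSI, TIMP3, SERPINE2, LOX, LOXL3, ADAMTS10 and ADAMTS20 in the 4 heart (red) and 4 mesoderm (blue) libraries, with exact 95% Poisson intervals of the count as bars. SULF2 and ARSI are high in node and junction, TIMP3 in junction and atrium, LOX in junction and ventricle, ADAMTS10 in the node and ADAMTS20 in the ventricle.

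LOX, the enzyme that starts the crosslinking of collagen and elastin, was split among the heart regions by more than any other member. It stood at 15.9 CPM in the ventricle, 13.7 in the junction and 1.85 in the atrium, and no read was counted in the node. A limit of 3 counts equals 0.216 CPM in the node, while the exact Poisson interval of its count reaches 0.265 CPM. The ventricle and junction levels were 74.0-fold and 63.7-fold above the limit of 3 counts. These folds are not lower bounds, since they leave out counting error. Ventricle and junction did not differ from each other beyond counting error (1.16-fold, 0.922 to 1.46). The mesoderm libraries held 1, 0, 1 and 1 count in the pacemaker field and the anterior, left and posterior parts. The ventricle was 295-fold above the pacemaker field, with an interval of 52.1 to 11730 that rests on that single count. LOX lies on chromosome Z from 73603980 to 73609993 on the minus strand.

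The other lysyl oxidases did not share this pattern. LOXL2 was counted in all libraries, at 40.6 CPM in the ventricle, 22.6 in the node, 21.1 in the junction, 24.4 in the atrium and 16.7 to 19.9 in the mesoderm. The ventricle exceeded the other heart regions 1.67-fold to 1.92-fold, and those 3 did not differ beyond counting error. LOXL3 had 16.3 CPM in the node, 11.8 in the junction, 3.98 in the atrium and 5.86 in the ventricle, with 4.69 to 8.71 in the mesoderm. The node exceeded the ventricle 2.78-fold (2.06 to 3.82) and the junction 1.38-fold (1.11 to 1.72). LOXL4 and LOXHD1 stayed at or below 0.757 and 1.49 CPM.

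Within the ADAMTS family single regions stood out. ADAMTS10, a protease of the fibrillin microfibrils, had 35.1 CPM in the node, 3.30 in the junction, 12.1 in the atrium, 4.23 in the ventricle and 1.68 to 3.08 in the mesoderm. The node exceeded the atrium 2.91-fold (2.44 to 3.48) and the junction 10.6-fold (7.64 to 15.2). ADAMTS20, a versican-cleaving enzyme, was at 34.5 CPM in the ventricle, 7.38 in the junction, 7.55 in the atrium, 2.37 in the node and 2.57 to 4.11 in the mesoderm. The ventricle exceeded the atrium 4.57-fold (3.67 to 5.73) and the node 14.5-fold (10.2 to 21.5), and atrium and junction did not differ beyond counting error (1.02-fold, 0.763 to 1.37). ADAMTS10 lies on chromosome 28 from 1356710 to 1386742 and ADAMTS20 on chromosome 1 from 31707791 to 31779739, both on the minus strand.

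ADAMTS3 and ADAMTSL3 were called higher in all heart libraries than in all mesoderm libraries, whereas ADAMTS7 and ADAMTS1, also above the mesoderm in each heart library, fell short of 2-fold between the nearest libraries. ADAMTS7 had 35.7 CPM in the node, 28.2 in the junction, 26.5 in the atrium and 10.6 in the ventricle, against 3.35 to 5.44 in the mesoderm. ADAMTS3, which cuts the amino-terminal propeptide of procollagen and helps to activate VEGFC, was at 23.6, 13.8, 22.0 and 16.1 CPM in node, junction, atrium and ventricle, against 3.30 to 4.98. ADAMTSL3, an ADAMTS-like protein without a protease domain, was at 16.7, 7.04, 15.5 and 7.81 CPM in these 4 regions, against 0.636 to 1.54. For both ADAMTS3 and ADAMTSL3, node and atrium could not be told apart by counting error (1.08-fold each), and neither could ventricle and junction. ADAMTS1, a protease of versican and aggrecan, had 35.2 CPM in the node, 19.6 in the junction, 26.5 in the atrium and 28.4 in the ventricle, against 7.18 to 15.5.

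Of the remaining ADAMTS genes, ADAMTS15 was the one called lower in the heart. ADAMTS15, a protease of versican and aggrecan, had 4.53 CPM in the node, 8.25 in the junction, 9.06 in the atrium and 4.23 in the ventricle, against 40.9, 42.7, 55.0 and 22.9 CPM in the pacemaker field and the anterior, left and posterior mesoderm. Every mesoderm library was above every heart library, and the smallest gap was 2.53-fold (2.05 to 3.14). ADAMTS17 was at 0.718, 4.86, 1.44 and 2.39 CPM in node, junction, atrium and ventricle, against 8.84 to 13.5. Its node level was the lowest of the 8. ADAMTS14, a procollagen protease, was at 16.7, 11.2, 8.44 and 9.11 CPM in the same heart order and 15.4 to 21.2 in the mesoderm. ADAMTS9, another versican protease, was at 40.5, 21.5, 23.9 and 17.5 CPM, against 19.96 to 35.2, and was not called anywhere.

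ADAMTS19 ran from 1.08 CPM in the ventricle to 12.9 in the left mesoderm and ADAMTS6 from 2.06 in the ventricle to 6.71 in the left mesoderm, and neither was called. ADAMTS2, ADAMTS5, ADAMTS8, ADAMTS12 and ADAMTS13 stayed at or below 2.55 CPM, as did ADAMTSL1, ADAMTSL2 and ADAMTSL5. Of the 3 ADAM genes, ADAM22 ran from 3.07 to 4.87 CPM, ADAM19 reached 3.15 CPM in the anterior mesoderm with at most 0.431 in the heart, and ADAM32 reached 3.82 CPM in the junction with 0 to 0.175 in the mesoderm.

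The heart range of the 6 expressed matrix metalloproteinases ran from less than 2-fold for MMP15 to over 4-fold for MMP24. MMP2, a secreted gelatinase, had 69.6 CPM in the node, 34.0 in the junction, 46.8 in the atrium, 58.0 in the ventricle and 24.6 to 42.7 in the mesoderm. MMP15, a membrane-type metalloproteinase, was at 189, 208, 245 and 273 CPM in node, junction, atrium and ventricle and at 147 to 170.2 in the mesoderm, without a 2-fold step anywhere, on a row of 1359 bases. MMP14, the membrane-type enzyme that activates MMP2, ran from 3.43 CPM in the posterior mesoderm to 8.91 in the node, on a row of 2158 bases outside the placed chromosomes. MMP28 did not pass 2.37 CPM, and MMP1 and MMP3 had at most 1 count in any library.

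3 membrane-bound members were called in at least 1 comparison. MMP17, which is held in the membrane by a lipid anchor, had 9.77 CPM in the node, 2.61 in the junction, 5.42 in the atrium and 5.64 in the ventricle, against 26.6, 21.3, 25.8 and 39.4 in the pacemaker field and the anterior, left and posterior mesoderm. MMP23B had 7.40 CPM in the node, 8.69 in the junction, 2.61 in the atrium and 2.71 in the ventricle, against 0.349 to 0.649, and so followed the sulfatases within the heart. MMP24, another membrane-type enzyme, had 10.6 CPM in the node, 15.5 in the junction, 13.4 in the atrium and 2.93 in the ventricle, against 5.09 to 6.86. The ventricle alone was below the mesoderm, and the atrium exceeded the ventricle 4.59-fold (3.06 to 7.14).

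When the node was set against both working chambers, 5 of the 26 members at 5 CPM or more were called higher: SULF2, ARSI, ADAMTS10, LOXL3 and MMP23B. Of all 9787 genes at that level, 3.11% were called higher and 1.46% lower. ADAMTS20 was the member called lower, at 3.18-fold (2.14 to 4.85) below the atrium. LOX was lower than both chambers as well, but the atrium's 1.85 CPM was under the level needed for a call. Relative to the 2 chambers averaged, the members had a median log2 ratio of 0.59, against -0.01 for all genes. Without the atrium 12 of 25 members were higher and 2 lower (ADAMTS20 and LOX), beside 7.07% and 4.66% of all genes. Without the ventricle the same 5 were higher and 2 lower (ADAMTS20 and TIMP3), beside 4.55% and 2.97%. With scaling by total counts, which shifted the median gene by 0.18, SERPINF1 joined the higher members, and the split over all genes went from 304 higher and 143 lower to 414 and 95.

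**Figure D4:**
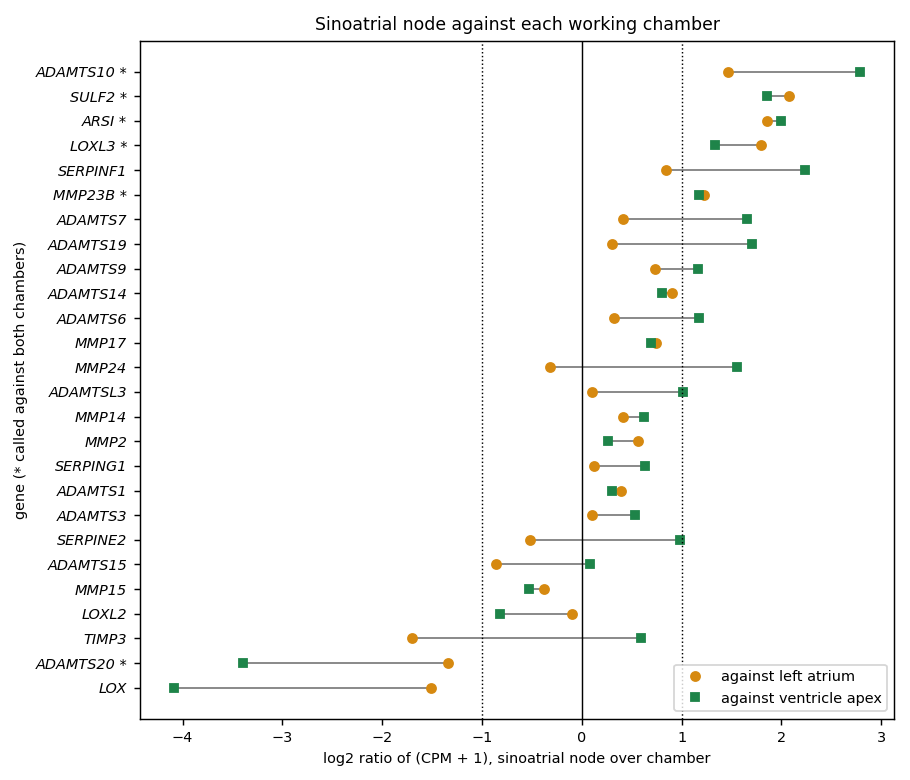
Log2 ratio of CPM + 1 in the sinoatrial node over the left atrium (orange circles) and over the ventricle apex (green squares) for the 26 members at 5 CPM or more in these libraries. Asterisks mark the 6 called against both chambers and dotted lines a 2-fold ratio, and genes such as TIMP3, MMP24 and SERPINE2 lie on opposite sides of 0 against the 2 chambers.

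Markers of other cell types were called in the node as well. Besides 3 of 3 tested epicardial markers, these were the mesenchyme genes PRRX1, at 23.2 CPM against 6.93 (atrium) and 1.08 (ventricle apex), and SNAI2, at 28.9 against 8.30 and 7.81 (2 of 7 cushion markers). In the junction PRRX1 was at 32.7 and SNAI2 at 40.9 CPM. TBX2 and MSX2 of the cushion list were also taken as junction genes, so the list does not mark cushion cells alone. The other cushion markers were not called for the node. MSX2 (1.80 CPM against 10.9 and 2.60), TBX20 (72.05 against 135.3 and 95.9) and VCAN (70.1 against 105.5 and 106) lay below both chambers. SOX9 lay above both and TBX2 between them. All 7 cushion markers summed to 218.9 CPM for the node, which was below the atrium at 296.5 and close to the ventricle at 217.3. APOA1, the 1 tested gene of the endoderm and liver list, reached 1489 CPM in the node, against 635 and 98.4. The liver genes APOB and AHSG did not pass 1.94 and 0.216 CPM in any heart library. Of 12 endothelial markers VWF was higher, at 11.6 CPM against 1.10 and 2.06, and NFATC1 lower, at 10.1 against 26.5 and 39.2. The part of these cell types in the members' levels was not tested.

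Related genes outside the set moved in part alongside in the node. Of 12 tested genes for heparan sulfate synthesis and its carriers, the substrate of SULF2, 2 were called higher and none lower: the glypicans GPC3, at 27.0 CPM against 4.53 and 1.63 in atrium and ventricle, and GPC4, at 185 against 86.5 and 89.5. Of 8 other protease inhibitors, 1 was higher, RECK, a membrane-anchored inhibitor of metalloproteinases, at 28.7 CPM against 9.68 and 12.2. Among 5 matrix substrates, ELN, elastin, was higher at 23.9 CPM against 5.01 and 7.70, and FBLN1, fibulin-1, at 16.2 against 7.14 and 7.49. None of 4 other matrix proteases and none of 9 other sulfatases and their modifiers was called, with PAPPA, a protease of insulin-like growth factor binding proteins, at 32.0 CPM against 42.3 and 20.6, and SUMF2, a paralog of the activator of sulfatases, at 50.7 against 52.4 and 48.8. PRSS23 was at 14.8 CPM against 30.1 and 11.4.

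SULF2, ARSI and MMP23B were also called when node and junction together were set against both chambers, a comparison chosen after these values were seen. It called 3 of 26 members higher and none lower, beside 0.867% and 0.434% of all genes. The members too were chosen with earlier results known, with ARSI as the only arylsulfatase taken in. The share of members called is therefore no separate evidence. None of 9 other sulfatases and their modifiers was called. The smallest gap was 2.73-fold (1.75 to 4.41) for MMP23B, 3.74-fold (3.22 to 4.37) for SULF2 and 4.86-fold (3.28 to 7.42) for ARSI. LOXL3 fell short because the junction exceeded the ventricle by 0.90 on the log2 scale. With 20 CPM as the least level SULF2 alone was called, and at 3-fold SULF2 and ARSI.

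Between the chambers, the atrium was higher in 6 of 22 members and lower in 2, beside 4.3% and 3.09% of all genes. The higher ones were TIMP3, MMP24, SERPINE2, SERPINF1, ADAMTS10 and ADAMTS7, and the lower ones ADAMTS20 and LOX. LOX was 8.61-fold (5.68 to 13.5) lower in the atrium, SERPINE2 2.85-fold (2.66 to 3.07) higher, and ADAMTS7 2.49-fold (1.99 to 3.14) higher. The median over members was 0.32, against -0.03 over all genes. With total counts the same 8 members were called, while the split over all genes went from 406 and 292 to 301 and 307. Other matrix proteases had 2 of 4 higher in the atrium, the serine protease PRSS23 at 30.1 CPM against 11.4 and PAPPA at 42.3 against 20.6, and other inhibitors had 2 of 7, WFIKKN1 at 5.97 CPM against 1.74 and the Kunitz-domain collagen COL7A1 at 5.90 against 2.17. Of matrix substrates 1 of 5 was higher, LTBP1, which anchors latent TGF-beta, at 280.2 CPM against 132. No gene of heparan sulfate (11 tested) or other sulfatase (9 tested) was called. Markers of other cell types differed too. Of 7 genes on the cushion list 4 were higher in the atrium (TBX2, SOX9, PRRX1 and MSX2, at 6.93 to 18.1 CPM against 1.08 to 2.60), though TBX2 and MSX2 were also taken as junction genes. Also higher were 2 of 4 erythroid markers, APOA1 at 635 against 98.4 and the keratin KRT8 at 174 against 72.9. Of 11 endothelial markers 3 were lower (ROBO4, CD34 and SOX7, at 10.8 to 13.7 CPM against 24.2 to 29.6) and ESAM was higher, at 179.9 against 85.3. Their part was not tested.

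The junction differed from the node, the atrium and the ventricle together in 1 of 26 members, SERPINE2, which was lower. No member was called higher. Of all genes 0.827% were called higher and 0.514% lower. SULF2, TIMP3, ARSI, MMP23B and MMP24 were at their highest heart level there but each had a neighbour within 2-fold. For 3 of them that gap was within counting error: ARSI (1.02-fold, 0.791 to 1.30), MMP23B (1.17-fold, 0.883 to 1.56) and MMP24 (1.15-fold, 0.933 to 1.42). In the deposited CPM without scaling ARSI was highest in the node, at 10.25 against 8.95 in the junction. Without the node SULF2, ARSI and MMP23B were called higher (3 of 25, beside 2.11% of all genes), without the atrium TIMP3 (1 of 26, beside 1.45%) and without the ventricle LOX (1 of 26, beside 1.32%). Without the ventricle ADAMTS10 and ADAMTSL3 joined SERPINE2 as lower (3 of 26, beside 0.89%). Among related genes higher in the junction were GPC1, a glypican, at 180.4 CPM against 36.6, 67.2 and 36.1 in those 3 regions (1 of 12 of its list), and VCAN, versican, at 222 against 70.1, 105 and 106. FBLN1 was at 35.5 CPM against 16.2, 7.14 and 7.49, and LAMA4, a laminin chain, at 38.1 against 16.7, 12.9 and 13.1, which made 3 of 5 matrix substrates. ARSJ, arylsulfatase J, at 14.2 CPM against 2.59, 6.04 and 2.71, was 1 of 9 other sulfatases. Other proteases (4 tested) and inhibitors (8 tested) had none called. Markers of cushion mesenchyme (7 of 11 found) summed to 725 CPM in the junction and 217 to 297 in the other heart libraries. That sum counts VCAN again and holds TBX20 at 242 CPM in the junction. It also holds MSX2 at 83.8 and TBX2 at 39.1 CPM, both taken as junction genes, so it is no level of cushion cells alone. Of 12 endothelial markers none was higher and 2 were lower. TEK was at 7.56 CPM against 38.8, 29.3 and 55.0, and SOX7 at 4.52 against 11.8, 13.7 and 29.6. The part of these cell types in the members' levels was not tested.

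From the mesoderm to the heart, 3 of 27 members were higher in all 4 heart libraries than in all 4 mesoderm libraries and 2 were lower, beside 5.62% and 2.53% of all 10454 genes. TIMP3, ADAMTS3 and ADAMTSL3 were higher, by at least 4.22-fold (3.19 to 5.66), 2.78-fold (2.04 to 3.82) and 4.56-fold (2.71 to 8.07) between the nearest libraries. ADAMTS15 and MMP17 were lower, by 2.53-fold (2.05 to 3.14) and 2.18-fold (1.76 to 2.71). MMP23B passed the ratio but stayed under 5 CPM in atrium and ventricle. The median over members was 0.71, against 0.01 for all genes. Under total-count scaling the ratio of the median gene moved by -0.30. This left out ADAMTS3 and added ADAMTS17, so that 2 members were higher and 3 lower, and it turned 587 higher and 265 lower genes into 433 and 472. Markers of other cell types differed between the same libraries. Erythroid markers (4 of 15 found) summed to 5714 to 15000 CPM against 24.5 to 34.5. HBE and HBAD were called higher, whereas TAL1 stood at 3.02 to 5.215 CPM in the heart against 11.3 to 19.2. Endothelial markers (12 of 16 found) summed to 229 to 399 CPM against 123 to 143. Of these 4 were called higher and SOX18 lower, at 3.13 to 5.97 CPM against 19.7 to 26.7. Endoderm and liver markers (3 of 13 found) summed to 98.5 to 1491 CPM in the heart against 620 to 798, nearly all from APOA1. Their part was not tested.

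In the same comparison TLL1, a tolloid protease that processes procollagen, was lower in the heart at 4.96 to 9.30 CPM against 36.3 to 42.8, and PRSS23 was higher at 7.82 to 30.1 against 0.524 to 2.43, which made 1 of 4 other proteases in each direction. Of 9 other inhibitors TFPI, which blocks the tissue factor pathway, was higher at 5.67 to 12.7 CPM against 0.172 to 0.786, and SPINT1, which inhibits hepatocyte growth factor activator, was lower at 12.1 to 20.3 against 54.9 to 67.1. Of 5 matrix substrates LAMA4, at 12.9 to 38.1 CPM against 2.06 to 4.02, and LTBP1, at 132 to 280.2 against 41.0 to 59.8, were higher. FBLN1 was lower, at 7.14 to 35.5 CPM against 168 to 196. No heparan sulfate gene of 12 and no other sulfatase of 10 was called.

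The node and the mesoderm labelled as the pacemaker progenitor field differed in 15 of 25 members. In the node 12 were higher and 3 lower, beside 15.3% and 8.55% of all 9820 genes. The largest folds among the higher members were those of ADAMTSL3 at 11.5-fold (7.68 to 17.8), MMP23B at 11.4-fold (6.25 to 22.8), ADAMTS10 at 11.4-fold (8.65 to 15.3), ADAMTS7 at 10.3-fold (7.94 to 13.6), TIMP3 at 9.15-fold (7.15 to 11.9) and SULF2 at 8.15-fold (6.97 to 9.56). ADAMTS3, SERPINF1, ARSI, SERPINE2, ADAMTS1 and MMP2 were 2.30-fold to 6.94-fold higher. ADAMTS17 was 18.1-fold (9.70 to 38.3), ADAMTS15 9.04-fold (6.98 to 11.9) and MMP17 2.72-fold (2.24 to 3.31) lower. The median over members was 0.99 and that over all genes 0.00. With total counts, which shifted the median gene by -0.20, MMP2 was no longer called, and the split over all genes went from 1504 and 840 to 1261 and 1261. Of the other genes, 3 of 5 matrix substrates were higher and 1 lower, 2 of 4 other proteases were higher and 1 lower, 1 of 8 other inhibitors was higher and 2 lower, and heparan sulfate genes had 1 of 12 in each direction (GPC3 at 27.0 CPM against 11.8 in the field, and SDC1, a syndecan, at 10.7 against 27.2). No other sulfatase of 10 was called. Cell type markers differed between node and field as well. In the node 5 of 5 muscle, 7 of 12 endothelial and 3 of 4 erythroid markers were higher. So were 2 of 3 epicardial markers and 1 of 7 cushion markers. Lower were 3 of 7 cushion markers (MSX2, PRRX1 and SNAI2), the endothelial SOX18 and the erythroid TAL1. HBE was at 5251 CPM against 11.85 and APOA1 at 1489 against 619. KRT8 was higher and EPCAM lower. The part of these cell types was not tested.

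No member was called in the pair of comparisons made within the mesoderm. The left part was not set apart on its own, and there ADAMTS15 had 55.0 CPM, against 22.9 in the posterior part. The pacemaker field against the other 3 parts had none of 19 members higher or lower, with 0.054% and 0% of all genes called, and a median of -0.05. No p-value exists for these counts, as each part is 1 library. The anterior against the posterior mesoderm had none of 18, with 0.905% and 1.04% of all genes. The ratios nearest to a call there were ADAMTS1 at 2.003-fold (1.55 to 2.61) and ADAMTS15 at 1.86-fold (1.60 to 2.17) in favour of the anterior part, and MMP17 at 1.85-fold (1.58 to 2.17) and SULF2 at 1.70-fold (1.30 to 2.23) in favour of the posterior part. On the scale of CPM + 1 these were log2 ratios of 0.92, 0.87, -0.86 and -0.70. SERPINE2 was level in the 2 parts (1.002-fold, 0.906 to 1.11). Of the 5 lists of related genes only the carrier GPC3 was called between anterior and posterior, at 23.2 and 5.66 CPM, and none was called for the pacemaker field. Among cell type markers the anterior part was higher in TBX20 (20.2 against 4.98 CPM) and in the muscle genes TNNT2 (694 against 297) and TNNI1 (53.9 against 25.2). It was lower in UPK3B (3.23 against 7.63), and their part was not tested.

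Some members lie near each other in the genome. ADAMTS8 and ADAMTS15 are neighbours on chromosome 24, with 8173 bases between their rows and no other listed gene, on opposite strands. ADAMTS8 was at 1.66 to 2.55 CPM in the mesoderm and 0.326 to 1.74 in the heart, with ranges that overlap, whereas those of ADAMTS15 did not. ADAMTS1 and ADAMTS5 lie 34384 bases apart on chromosome 1, with 2 listed genes between them. ADAMTS1 was at 19.6 to 35.2 CPM in the heart against 7.18 to 15.5 in the mesoderm, while ADAMTS5 was at 0.261 to 1.52 against 0.858 to 2.14, ranges that overlap. SERPINF2 and SERPINF1 lie 6180 bases apart on chromosome 19, and SERPINF2, the inhibitor of plasmin, reached 2.32 CPM in the posterior mesoderm and at most 0.647 in the heart. The SERPINA rows on chromosome 5 and the SERPINB rows on chromosome 2 form clusters, of which no member passed 0.601 CPM.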

How the data were processed

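Chick embryo tissue was dissected and pooled, and polyadenylated RNA was read as 36-base pairs, per the labels' protocols. Bowtie and TopHat are named in the submitters' processing notes. Not given in the sources used here are the counting program, its use of strand, the annotation and the genome build, so reads of overlapping genes on the 2 strands may be mixed, and so may those of near-identical copies. The authors deposited read counts for 7 libraries and normalized values in CPM for all 8. Per the file headers, the count column of a table belongs to another library than its CPM column, so columns were matched by the header name. Posterior counts were worked back from the deposited CPM, of which 100% came out as whole multiples of 1 read within 0.01.

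TMM factors were computed for the 8 libraries together (edgeR 4.0.16, run in R 4.3.3). DESeq2 1.42.0 gave the alternative size factors. Log2 ratios used CPM + 1. Over all genes 7 comparisons were made, and an 8th, of node and junction together, was added after the values were seen. Only members and genes of the lists are printed. The calling script was checked on simulated data. The members, lists and comparisons were chosen with earlier results of these data known. Of 198 list entries 97 were found by exact name. Members called anywhere or at 20 CPM or more are given for each heart library, with the mesoderm in full or as a range and all values in the heat map, and others by range. Of a list of related genes, up to 4 called genes are named where not named before, and where none was called the 2 at the highest level are named for the node against the chambers only, except 1 gene that is not reported here. Names of 25 of the 27 expressed members matched a chicken RefSeq symbol (assembly GRCg7b) on the same chromosome with shared neighbours. MMP14 and MMP23B did not. No paper was used.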

Additional observations from a re-analysis of the deposited data

Results flagged for a closer look

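2 members lay above the mesoderm in some heart regions and below it in another, beyond counting error and by at least 1.5-fold against each of the 4 mesoderm libraries. SERPINE2 was above all 4 in the node (204.4 CPM), the atrium (293.7 CPM) and the ventricle (102.9 CPM) and below all 4 in the junction (33.96 CPM), with the mesoderm at 62.5 to 68.5 CPM. MMP24 was above in the node (10.56 CPM), the junction (15.46 CPM) and the atrium (13.45 CPM) and below in the ventricle (2.93 CPM), with the mesoderm at 5.09 to 6.86 CPM. With 1 library per region the difference between regions was not tested. In the deposited CPM without scaling the directions were the same but the 1.5-fold margin was not met throughout: SERPINE2 stood at 92.4 in the ventricle against 70.9 to 78.6 in the mesoderm, and MMP24 at 10.5 in the node against 5.91 to 7.44.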

How the results depend on the processing

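With DESeq2 size factors every count of called members stayed the same, and with a pseudocount of 0.25 CPM 2 counts rose by 1 member each (ADAMTS15 between the chambers, ADAMTS9 between node and field). The least level and the fold moved the counts more, and by construction both decide which genes can be called. For the settings of size factors, pseudocount, least level and fold, calls were made on the members only. No share of all genes stands beside these counts, so they cannot be read as a result about the members as a set. With 20 CPM as the least level, heart over mesoderm fell from 3 to 1 member, node over chambers from 5 to 2 with none lower, atrium over ventricle from 6 to 3 with 1 lower, and node with junction over the chambers from 3 to 1. With 1 CPM, the node had 2 lower members and the atrium 10 higher. At 3-fold, 0 members were lower in the heart than in the mesoderm, 2 were higher in the node with 0 lower, 2 were higher in the atrium and 0 lower in the junction. At 1.5-fold, 9 were higher in the node, 2 were higher and 2 lower in the junction, and 4 were higher and 2 lower in the anterior than in the posterior mesoderm. Leaving out 1 library gave 5 to 12 higher and 2 to 2 lower members for the node, 1 to 3 higher and 1 to 3 lower for the junction, 3 to 4 higher and 2 to 3 lower for heart against mesoderm, and 0 for the pacemaker field. For heart against mesoderm 5.78% to 6.68% of all genes were then higher and 2.65% to 3.18% lower. No paired analysis was possible because each tissue is 1 library and no result comes from a test. Genes under 5 CPM were kept from a call by the chosen level. Of the members, 10 had fewer than 10 counts summed over all libraries, while ADAM22 had 31 to 90 counts in each library.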
